A study of Mus musculus with 6 samples.

Results

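The cells described here are the hippocampal interneurons: all 106 cells that the authors' digital expression table assigns to its class Interneuron, out of 12823 cells in 17 classes. The cells came from the hippocampi of 6 APP/PS1 mice aged 10 weeks and were profiled by Drop-Seq, a droplet method whose beads tag every transcript molecule with the barcode of its cell and a unique molecular identifier (UMI). Of these mice, 3 had received phosphate buffered saline (PBS) and 3 an antisense oligonucleotide (ASO), and the title of the series names reduction of IDOL, the E3 ubiquitin ligase encoded by Mylip. All 6 mice carried the transgenes of strain B6.Cg-Tg(APPswe,PSEN1dE9)85Dbo/Mmjax, a mutant amyloid precursor protein and a mutant presenilin 1. The control was saline rather than a control oligonucleotide, so effects of the sequence and of an oligonucleotide as such cannot be told apart. No mouse without the transgenes was analysed here. Because the transgenes of this strain are known to be driven by a prion protein promoter, UMIs assigned to App or Prnp may include transgene transcripts, which was not tested.

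Interneurons are the local inhibitory neurons of the hippocampus. They make GABA from glutamate with the decarboxylases encoded by Gad1 and Gad2, load it into vesicles with the transporter encoded by Slc32a1, and release it onto pyramidal cells, granule cells and each other. They are commonly divided by origin: cells from the medial ganglionic eminence (MGE) include the somatostatin and parvalbumin types, and cells from the caudal ganglionic eminence (CGE) include the vasoactive intestinal peptide and cholecystokinin types. Peptides released beside GABA, such as those encoded by Sst, Vip and Npy, are standard markers of these types.

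UMIs of Sst and of Vip were found in separate cells of the class, as described below. Both genes are textbook targets of cyclic AMP signalling through the CRE motif, in its full form TGACGTCA or the shorter form TGACGT. Their promoter stretches are shown for that reason, taken from RefSeq windows of GRCm38.p6 that run from 250 bases before to 50 after each gene's start. The Sst stretch lies on the minus strand at chr16:23890874-23890903, with the motif 48 to 41 bases before the start. The Vip stretch lies on the plus strand at chr10:5639127-5639156, with the shorter form TGACGT 79 to 74 bases before the start. Each is written 5′ to 3′ with the match in capitals.
Sst: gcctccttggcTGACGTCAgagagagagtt
Vip: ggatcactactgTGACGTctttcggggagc
Windows were found for all 7 genes searched, the 6 markers and Vip, with 9 windows between them. The motifs were chosen after the values were seen, and the 4 named here were searched on both strands. TGACGTCA, which contains TGACGT and reads the same on both strands, was in the window of Sst and in 1.79% of all 32851 RefSeq windows. TGACGT was in the windows of Sst and Vip and in 7.51% of all windows. TAATTA was in none of the 9 windows and in 5.29% of all, and TATAAA was in the windows of Vip and Gad1 and in 13.6% of all. A match is a description of these letters and not a measured site.

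The interneurons were few and of ordinary depth. PBS mice 1, 2 and 3 gave 13, 13 and 14 of them, and ASO mice 1, 2 and 3 gave 28, 22 and 16. Their summed UMIs ranged from 16180 to 16909 after PBS against 22158 to 32681 after ASO, 135155 in all. The median interneuron held 1177 UMIs and 850 genes, against 1147 UMIs and 839 genes in the 2205 other neurons. Mitochondrial genes took 5.36% to 5.58% of interneuron UMIs after PBS and 4.14% to 7.17% after ASO. Scrublet called 1 of the 106 interneurons a doublet, against 207 of all 12823 cells. No interneuron barcode occurred in more than 1 mouse, while 8 barcodes did among all cells. For a gene without any UMI in the class, the count of 0 allows UMIs in up to 2.83% of cells (3 of 106) or a level of up to 22.2 CPM, the unit of level used here: a gene's UMIs scaled to a common total. Intervals and such limits cover counting error only, and a limit on a share is one on cells with a UMI, not on cells that express the gene.

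The defining genes of GABAergic neurons were present as the label says. The cells were classed from their transcripts, so these levels are a description without a test. Gad2 was found in 72 of 106 interneurons (67.9%, exact 95% interval 58.2% to 76.7%), against 0.862% of other neurons and 0.394% of oligodendrocytes. Oligodendrocytes stand here for a cell type that lacks these genes, at a median depth of 1039 UMIs. Gad1 was found in 59.4% of interneurons (49.5% to 68.9%), against 5.85% of other neurons and 0.361% of oligodendrocytes. Slc32a1, the vesicular GABA transporter, was found in 48.1% (38.3% to 58.0%), against 0.317% of other neurons and 0.131% of oligodendrocytes. In GENCODE's annotation of GRCm38, the build the submitters' processing notes name, Gad1 lies at chr2:70553072-70602014, Gad2 at chr2:22622205-22693874 and Slc32a1 at chr2:158610767-158615748.

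**Figure D1:**
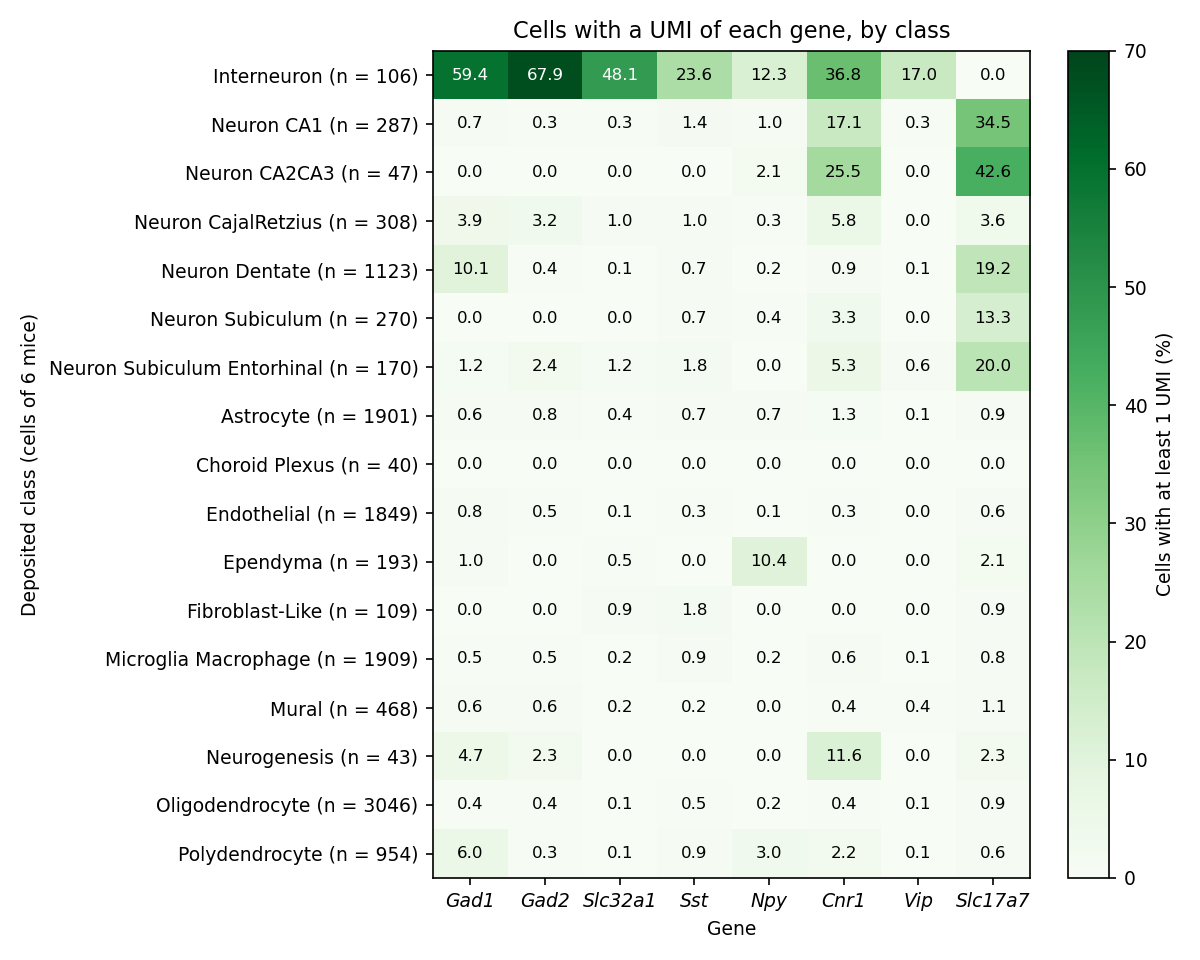
Share of cells with at least 1 UMI (percent, colour and number) of 8 genes (columns) in each of the 17 deposited classes (rows, with their number of cells over 6 mice). The interneuron row is high for the 6 markers and Vip and 0 for Slc17a7; the class with the next highest level of Gad1 is dentate neurons, where 10.1% of cells had a UMI.

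Of all UMIs of a gene in the table, interneurons held 88.8% for Vip, 75.5% for Dlx1, 74.8% for Gad2 and 70.1% for Slc32a1, although they were 106 of 12823 cells. The share was lower for Sst (55.6%), Cnr1 (36.4%), Gad1 (32.9%) and Npy (29.3%). Outside the class, Gad1 was highest in dentate neurons, at 93.1 CPM with a UMI in 10.1% of cells, and Npy in ependymal cells, at 103 CPM in 10.4%. Cnr1, the cannabinoid receptor of presynaptic terminals, was next highest in CA2 and CA3 neurons, at 192 CPM in 25.5% of cells. Slc17a7, the vesicular glutamate transporter of excitatory neurons, had 0 of its 598 UMIs in interneurons, which allows UMIs in up to 2.83% of them.

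Counted per cell, 92 of 106 interneurons held a UMI of Gad1, Gad2 or Slc32a1. All 3 genes were found in 29 cells, exactly 2 in 36 and exactly 1 in 27. Of the 14 cells without any of them, 10 held a UMI of Erbb4, the neuregulin receptor enriched in interneurons, which was looked at after its values were seen. From the other side, 103 cells of the table held at least 2 UMIs of the 3 GABA genes together: 74 were interneurons and 29 belonged to other classes, 15 of them dentate neurons and 8 Cajal-Retzius cells.

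The genes with the highest ratio of interneuron level to the level in other neurons included GABA genes and transcripts outside the lists alike. Of the 25 highest, 17 were in the lists used here, and the others included 4930555F03Rik, Gm26905 and Sox2ot. Among 1254 genes with at least 20 interneuron UMIs and a UMI in all 6 mice, they ran from Dlx1 at 215-fold down to Arl4c at 9.75-fold, with Col19a1 at 9.57-fold just outside, each fold taken after adding 1 CPM to the denominator. Vip is not among them because 1 mouse had none of it. Sox2ot was not particular to interneurons: a UMI was found in 49.7% of oligodendrocytes, against 29.2% of interneurons. The transcription factor gene Dlx1 and the antisense transcript Dlx6os1, both of the Dlx system that sets GABAergic identity, stood at 215-fold and 74.6-fold. Maf, a transcription factor of MGE-derived interneurons, stood at 67.3-fold. GABA handling was represented by Gad2 (152-fold), Slc32a1 (126-fold) and Gad1 (16.8-fold). Whether Dlx6os1 reads could be told from those of an overlapping gene depends on how the authors counted strands, which is not given in the sources used here.

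Receptors and channels made up much of the remainder. Erbb4 reached 3655 CPM in interneurons and 41.3 CPM in other neurons, and its highest level in another class was 796 CPM in polydendrocytes. Grik1, a kainate receptor subunit, reached 947 CPM against 12.4 CPM. Kcnmb2, an auxiliary subunit of calcium-activated potassium channels, was at 363 CPM against 16.1 CPM, and Kcnc2, a fast potassium channel, was 13.9-fold higher. Nxph1, a ligand of neurexins, was at 570 CPM against 14.6 CPM, and the growth factor gene Igf1 at 185 CPM against 3.00 CPM. Dentate neurons made up 1123 of the 2205 other neurons, and levels within that pool differed. Kcnc2 was at 991 CPM in interneurons, 10.8 CPM in dentate neurons and 158 CPM in CA1 neurons. Gm26905 (525 CPM in interneurons) and Galntl6 (1687 CPM) were at 146 and 447 CPM in CA1 neurons. Kcnmb2 went the other way within the pool, at 15.2 CPM in dentate and 5.73 CPM in CA1 neurons.

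Within the AMPA receptor family the subunits differed in direction. Gria2, whose subunit limits calcium entry, was lower in interneurons, at 947 CPM against 2323 CPM in other neurons. Gria4 was higher, at 829 CPM against 207 CPM, and Gria1 was close in level, at 1376 CPM against 1261 CPM. Grip1, which encodes a scaffold that binds AMPA receptor subunits, was at 858 CPM against 78.8 CPM. These pairs compare 1 gene between classes and say nothing of the order of the subunits.

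Peptide and type markers marked small sets of cells. Cnr1 was found in 39 cells (36.8%), Sst in 25 (23.6%, 15.9% to 32.8%), Vip in 18 (17.0%, 10.4% to 25.5%), Calb2, the calretinin gene, in 15 (14.2%), Cck in 14 (13.2%) and Npy in 13 (12.3%, 6.7% to 20.1%). Of these, Cck was no mark of the class: it was at 259 CPM in interneurons and 396 CPM in other neurons. Pvalb, the marker of parvalbumin basket cells, was found in 5 cells (4.72%) with 15 UMIs, 7 of them in a single cell. Reln, the secreted protein reelin, was found in 31 cells, and Lamp5, a marker of neurogliaform cells, in 12. Tac2, which encodes neurokinin B, was found in 9 interneurons and had 0 UMIs in the 2205 other neurons, which allows UMIs in up to 0.136% of them.

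**Figure D2:**
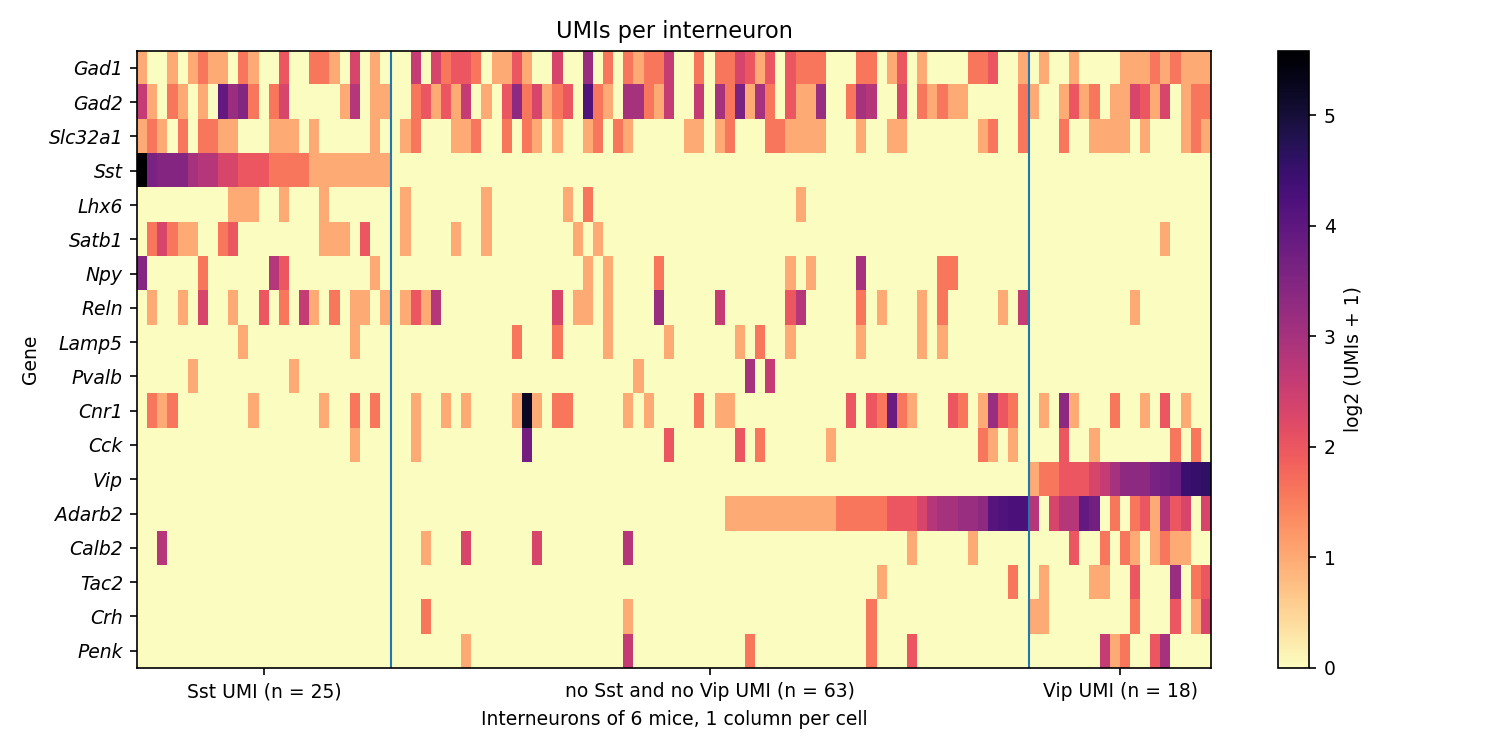
UMIs of 18 genes (rows) in each of the 106 interneurons (columns; colour is log2 of UMIs + 1), set in 3 blocks by whether a cell held an Sst UMI (25 cells), neither gene (63 cells) or a Vip UMI (18 cells). No column holds both Sst and Vip, and Adarb2 is empty throughout the Sst block.

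Of 11 peptide genes, 35 cells held none, 35 held 1, 24 held 2 and 12 held 3 or more. Tac2 was mostly found with Vip, in 7 of 9 Tac2 cells, and Crh, which encodes corticotropin-releasing hormone, in 6 of 9. Cck was found with Cnr1 in 7 of 14 Cck cells (50%), beside 36.8% with Cnr1 among all interneurons. Npy was found with Reln in 8 of 13 Npy cells and with Sst in 5. Htr3a, the ionotropic serotonin receptor, was found with Cnr1 in 7 of 9 Htr3a cells. Cells are not replicates and these counts carry no test.

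The peptide transcripts were concentrated in few cells, so their summed levels moved with single cells. The median Sst cell held 3 UMIs and the highest 47, which is 33.6% of all 140 Sst UMIs. The median Vip cell held 8 UMIs and the highest 23. By mouse, Sst was at 599, 769 and 618 CPM after PBS (mice 1 to 3) against 796, 2129 and 722 CPM after ASO (mice 1 to 3). ASO mouse 2 stood apart and the other 5 mice lay close together. Vip UMIs numbered 29, 0 and 35 after PBS against 61, 32 and 2 after ASO, so both groups held a mouse nearly or wholly without it. The 0 of 13 cells in PBS mouse 2 allows a share with a Vip UMI of up to 23.1%.

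Of the GABA genes, Gad1 and Gad2 were more even between mice, and Slc32a1 less so. Gad2 was at 1736, 1656 and 1916 CPM after PBS against 1591, 2490 and 1264 CPM after ASO, so the groups overlapped. Gad1 was at 778, 1124 and 1236 CPM after PBS against 887, 1048 and 767 CPM after ASO. Slc32a1 was at 838, 473 and 680 CPM after PBS against 490, 426 and 271 CPM after ASO, also with overlap. Cnr1 spread more, from 494 to 1479 CPM after PBS against 316 to 1622 CPM after ASO. Npy had 4, 8 and 0 UMIs after PBS and 11, 15 and 1 after ASO.

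Cells with an Sst UMI and cells with a Vip UMI were separate: 43 of 106 interneurons held a UMI of either gene, and 0 held UMIs of both, which allows up to 2.83% with both detected. Cells that expressed either gene below detection cannot be seen here. Sst cells came from all 6 mice (2, 2 and 3 after PBS, 7, 5 and 6 after ASO), and Vip cells from 5 (3, 0 and 3 after PBS, 7, 4 and 1 after ASO). Sst cells were 7 of 40 PBS interneurons (17.5%) and 18 of 66 ASO interneurons (27.3%), and Vip cells were 6 of 40 (15%) and 12 of 66 (18.2%). The median Sst cell held 1380 UMIs and the median Vip cell 913.5. This split was chosen after the values were seen and is described without a test.

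Of the CGE lineage genes with a UMI, most had a higher level in Vip cells, many from few UMIs. Of the 14 genes of that list 13 remain without Vip, 12 had a UMI in either set of cells, and 10 of these were higher in Vip cells, with Nr2f2 and Sncg the other way. The intervals were apart for 4 of the 10 (Adarb2, Prox1, Cck and Cxcl14). Over all 9803 genes with a UMI in either set, 45.3% were higher in Vip cells and the intervals were apart for 0.306%. Adarb2, an RNA-binding protein gene that marks CGE-derived interneurons, was found in 14 of 18 Vip cells, at 3829 CPM (exact Poisson 95% interval 3002 to 4815), and in 0 of 25 Sst cells, which allows a share with a UMI of up to 12%. Tac2 was found in 7 Vip cells and 0 Sst cells, Crh in 6 and 0, Penk, which encodes enkephalins, in 5 and 0, and Prox1, a CGE transcription factor gene, in 5 and 0. Calb2 was found in 8 Vip cells and 1 Sst cell, and Dlx1 in 8 and 2. Igf1, which is in none of the lists, was found in 9 Vip cells and 3 Sst cells.

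Of 14 MGE lineage genes without Sst, 13 had a UMI in either set and 12 were higher in Sst cells, with Nos1 the other way. The intervals were apart for 4 of the 12, and over all 9803 genes 54.7% were higher in Sst cells and 0.337% were apart. Outside that list, Kcnd2, a potassium channel of the A-type current, was found in 15 of 25 Sst cells, at 991 CPM (682 to 1391), and in 0 of 18 Vip cells, which allows a share with a UMI of up to 16.7%. Sox6 was found in 8 Sst cells and 0 Vip cells, Lhx6 in 5 and 0, and Satb1 in 11 and 1, all 3 being transcription factor genes of MGE-derived interneurons. Elfn1, a postsynaptic adhesion protein that shapes release onto Sst cells, was found in 7 and 2, and Reln in 12 and 1. Kcnc2 was at 1351 CPM in Sst cells and 420 CPM in Vip cells.

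The GABA gene Gad1 was at 690 CPM in Sst cells and 682 CPM in Vip cells, Gad2 at 1771 and 1416 CPM, and Slc32a1 at 510 and 577 CPM. Erbb4 was at 1681 CPM (1270 to 2183) in Sst cells and 2833 CPM (2128 to 3696) in Vip cells, with overlapping intervals. Cnr1 was at 330 CPM in Sst cells and 944 CPM in Vip cells, in 7 cells of each.

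**Figure D3:**
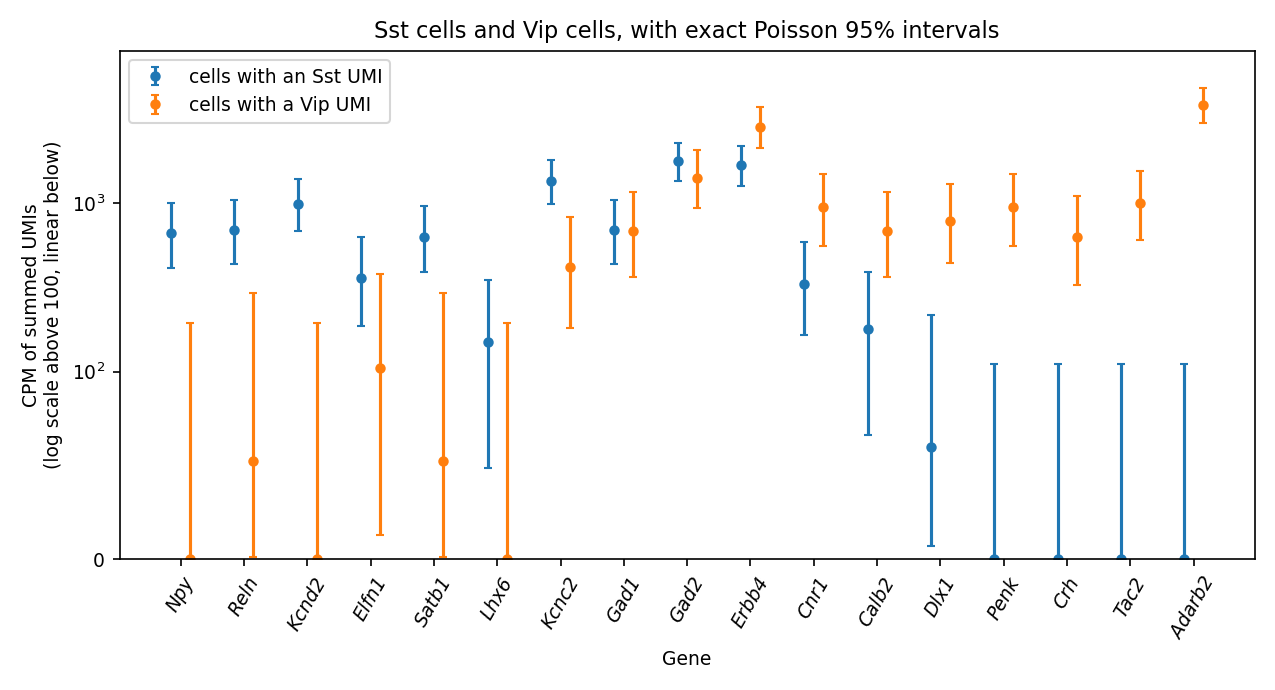
CPM of summed UMIs (y axis, logarithmic above 100 CPM and linear below) of 17 genes in the 25 interneurons with an Sst UMI (blue) and the 18 with a Vip UMI (orange); bars are exact Poisson 95% intervals, which cover counting error only. Adarb2 is at 3829 CPM in Vip cells and 0 in Sst cells, Kcnd2 is at 991 CPM in Sst cells and 0 in Vip cells, and Gad1 is near 690 CPM in both.

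Markers of other cell types were low in interneurons, with some exceptions that varied by mouse. Of 12 excitatory markers 8 were at 0, Slc17a7, Slc17a6, Neurod6, Neurod1, Tbr1, C1ql2, C1ql3 and Fibcd1, and the list summed to 355 to 539 CPM after PBS against 428 to 721 CPM after ASO. Choroid plexus markers summed to 247 to 2898 CPM after PBS against 1802 to 6002 CPM after ASO, with Folr1, Kl and Clic6 at 0. Ttr carried that sum, at 2395, 2661 and 185 CPM after PBS against 2632, 1441 and 5732 CPM after ASO. Astrocyte markers summed to 355 to 2155 CPM and 643 to 1998 CPM, and microglial markers to 0 to 247 CPM and 0 to 45.1 CPM, with P2ry12 and Csf1r at 0. The part of these transcripts in the comparisons of treatment was not tested.

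Interneurons made up a larger share of the cells in each ASO mouse than in any PBS mouse, but the test has little room. They were 0.703%, 0.636% and 0.657% of all cells after PBS (mice 1 to 3) and 0.973%, 1.03% and 0.899% after ASO (mice 1 to 3), with means of 0.665% ± 0.0341 (SD, n = 3) and 0.967% ± 0.0648 (SD, n = 3). The groups did not overlap, and the exact two-sided permutation test gave p = 0.1, the smallest that 3 against 3 mice allow (adjusted over 2 shares, 0.1). Of neurons alone they were 3.93%, 3.49% and 3.36% after PBS and 5.86%, 5.96% and 4.66% after ASO, again without overlap (difference 1.90 percentage points, exact permutation p = 0.1). When interneurons were instead taken as all cells with at least 2 UMIs of Gad1, Gad2 and Slc32a1 together, such cells numbered 13, 15 and 19 after PBS against 21, 25 and 10 after ASO. The difference then fell from 0.302 to 0.0442 percentage points of all cells (exact permutation p = 0.9) and from 1.90 to 0.515 points of neurons (p = 0.8), and the groups overlapped.

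No gene in interneurons was called different between ASO and PBS mice at an adjusted p of 0.05. After a filter on low counts, 216 of the 12768 genes detected in the class were tested with edgeR's quasi-likelihood test on UMIs summed per mouse, 0 were called higher (0%) and 0 lower (0%), and the lowest adjusted p was 0.283. An unadjusted p under 0.05 was reached by 10 genes (4.63%), and DESeq2 and limma voom each called 0. The TMM scaling centres the values, with 108 above and 108 below 0 and a median log2 fold change of -0.01; with no filter on low counts the same 216 genes split into 167 above and 49 below, a median shift of 0.36. In 26 genes (12%) the 3 ASO mice did not overlap the 3 PBS mice, 16 higher (7.41%) and 10 lower (4.63%). If mice were exchangeable, 3 against 3 would separate with a probability of 0.1, and 12% is near that. The labels call the samples separate mice.

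Mylip had 1 UMI in all interneurons, in ASO mouse 2, so its level could not be compared in this class. Of the lipoprotein receptors IDOL is known to act on, Vldlr had 4, 4 and 0 UMIs after PBS and 5, 3 and 2 after ASO, and Lrp8, the apolipoprotein E receptor that binds reelin, had 1, 2 and 0 and 3, 2 and 2. Both were below the filter. Of the list of lipoprotein receptors and reelin signalling, 3 of 10 genes were tested, with a median of 0.29: Lrp1b, Reln and Dab1, the intracellular adaptor of reelin signalling, at 0.98, 0.29 and 0.04 on the log2 scale, none past the threshold.

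Among markers of the class, none passed either. Sst had a log2 fold change of 0.83 by edgeR (SE 0.474, adjusted p = 0.776), Gad1 of -0.26 (SE 0.355, adjusted p = 0.928), Gad2 of -0.03 (SE 0.343, adjusted p = 0.973) and Cnr1 of -0.11 (SE 0.566, adjusted p = 0.973). Slc32a1 and Npy were below the filter. Both MGE genes tested, Kcnc2 and Sst, had values above 0, and the 3 CGE genes tested, Adarb2, Vip and Cnr1, had values below 0 with a median of -0.39. These counts rest on 2 of 15 and 3 of 14 list members, and the value for Sst was 0.24 without ASO mouse 2 (adjusted p = 0.813). The value for Vip had an SE of 0.898, and Cnr1 kept its direction in 12 of 17 alternatives.

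App, the amyloid precursor protein, was the member of the amyloid list with the lowest p. It was at 2515, 2366 and 3399 CPM after PBS against 1499, 1278 and 948 CPM after ASO, from 42, 40, 55, 49, 39 and 21 UMIs. All 3 ASO mice lay below all PBS mice, and the log2 fold change was -1.19 (SE 0.326) with an edgeR adjusted p of 0.283, which does not pass. The 3 other tested members were also below 0, Itm2b at -0.81 (SE 0.546), Aplp2 at -0.59 (SE 0.402) and Mapt at -0.22 (SE 0.427). Thus 4 of 4 tested of 18 were below 0, beside 108 of all 216 genes tested, with medians of -0.70 and -0.01. None of the 4 passed the threshold, and so few genes cannot show a lean of the list. Prnp, whose promoter drives the transgenes, was at 1976, 3194 and 2967 CPM after PBS against 2172, 1966 and 1309 CPM after ASO, with overlap, and had a value of -0.62 (adjusted p = 0.734).

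Of 19 ion channel genes 4 were tested, 2 above and 2 below 0 with a median of 0.12, and none passed. Among genes of lowest p below 0, Atp1b1, a beta subunit of the sodium pump, which restores ion gradients after firing, was at 2395, 4317 and 6984 CPM after PBS against 2172, 1474 and 1128 CPM after ASO. The PBS mice were spread widely and PBS mouse 1 lay close to ASO mouse 1, although the groups did not overlap. Its log2 fold change was -1.56 (SE 0.406, edgeR adjusted p = 0.283). Scn1a, the sodium channel of fast-spiking interneurons, was at 599, 946 and 803 CPM against 337, 590 and 316 CPM, with a value of -0.94 (adjusted p = 0.734).

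Above 0, the gene with the lowest p was Ctnnd2, which encodes the neuronal adhesion protein delta-catenin. It was at 299, 177 and 309 CPM after PBS against 796, 655 and 1038 CPM after ASO, with means of 262 ± 73.4 and 830 ± 194 CPM (SD, n = 3). It had a log2 fold change of 1.58, with SE 0.445 and adjusted p = 0.283 by edgeR. Epha6, an ephrin receptor, had a value of 1.59 (SE 0.546, adjusted p = 0.574), and was at 659, 118 and 124 CPM against 887, 819 and 1173 CPM. Rims1, an organiser of the presynaptic active zone, was at 539, 532 and 433 CPM against 826, 950 and 857 CPM, with tight groups, and had a value of 0.75 (adjusted p = 0.734). Pde4d, a cyclic AMP phosphodiesterase, and Kcnc2 were above all PBS mice in all ASO mice, with values of 1.03 and 0.88. Lrp1b was above them in 2 of 3.

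**Figure D4:**
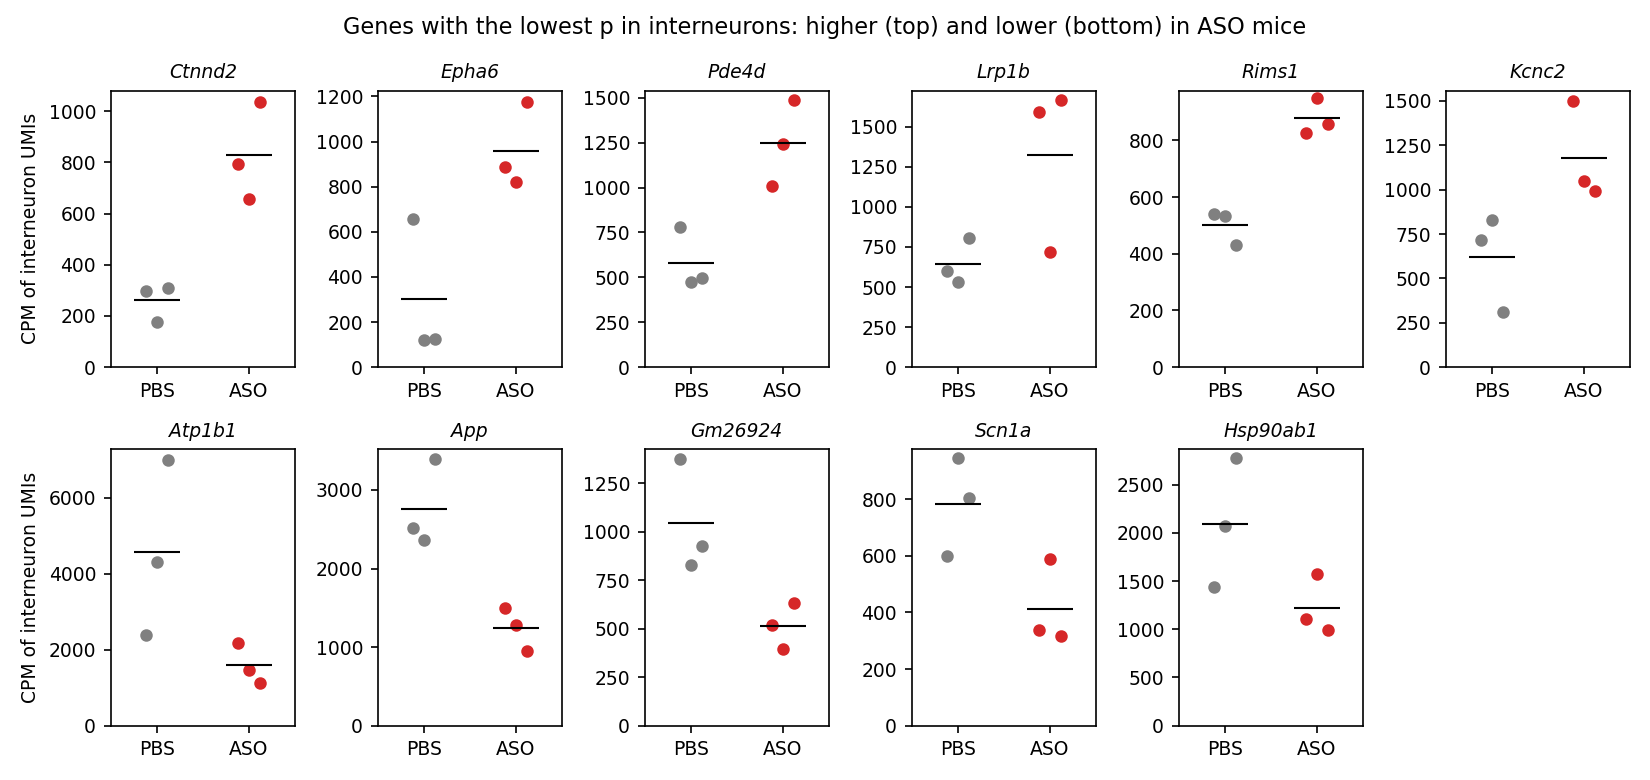
CPM of interneuron UMIs (y axes, each from 0) in the 3 PBS mice (grey) and 3 ASO mice (red) for the 6 genes of lowest p that were higher (top) and 5 of the 6 that were lower (bottom) in ASO mice; points are mice and black lines are group means. No gene passed an adjusted p of 0.05, and Atp1b1 spreads from 2395 to 6984 CPM among PBS mice.

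Other lists went both ways. Of 19 neuropeptide genes 4 were tested, Sst above 0 and Pcsk1n, Cpe and Vip below, with a median of -0.39. Of 15 glutamate receptor genes 9 were tested, 7 above and 2 below 0 with a median of 0.06, and of 22 synaptic adhesion and release genes 9 were tested, 6 above and 3 below with a median of 0.09. Of 15 GABA-A receptor genes 2 were tested, 1 in each direction. None of these genes passed the threshold.

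Whether the effect of the oligonucleotide differed between interneurons and other neurons was tested as an interaction, with the mouse as a block. Of 6188 genes 1 was called (0.0162%), Atp1b1, and 188 (3.04%) had an unadjusted p under 0.05. The 216 genes tested in interneurons alone were among the 6188; the remainder passed the filter through the other neurons, and the median gene had 10 UMIs in all interneurons, so the share called says little about them. In other neurons Atp1b1 was at 1716, 2362 and 2490 CPM after PBS against 1687, 3042 and 2286 CPM after ASO. It had a log2 fold change of 0.09 (SE 0.200). The difference between the classes was -1.27 (SE 0.279, edgeR adjusted p = 0.0313). Its direction held when each mouse was left out in turn, but not its call: leaving out PBS mouse 3 brought it to -0.92 (adjusted p = 1.0), ASO mouse 3 to -0.998 (0.800), ASO mouse 2 to -1.06 (0.766) and PBS mouse 2 to -1.28 (0.692), while it passed without PBS mouse 1 at -1.43 (0.00839) and without ASO mouse 1 at -1.79 (0.000231). For App the difference was -1.09 (SE 0.299, adjusted p = 0.178), with 0.19 in other neurons, and for Epha6 1.99 (adjusted p = 0.0914).

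The direction of the values in interneurons varied with gene length, which is given as a description over 211 tested genes with a length in GENCODE. Of 3 near equal parts by length, the longest, 378 to 2271 kb, had 54 of 70 genes higher in ASO mice and a median log2 fold change of 0.26. The shortest part, 0.297 to 38.1 kb, had 19 of 71 higher and a median of -0.17. Spearman's rho across genes was 0.42, and from 0.197 (without PBS mouse 2) to 0.559 (without ASO mouse 2) when 1 mouse was left out. Over 207 of these genes in the other neurons of the same mice rho was -0.40, with 17 of the 69 longest higher, while over all 7475 genes tested in other neurons it was -0.05. Genes share libraries and are not independent, and this description was chosen after the values were seen.

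**Figure D5:**
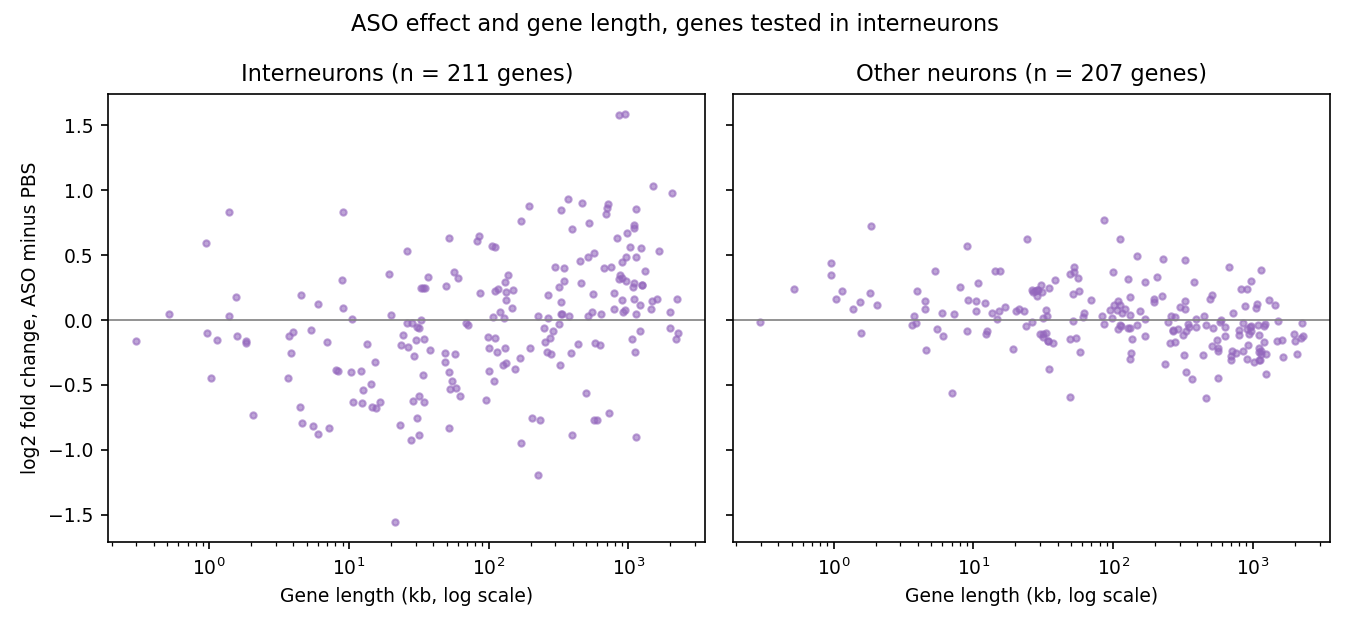
Log2 fold change of ASO against PBS mice (y axis) against gene length in kb (x axis, log scale), 1 point per gene tested in interneurons, in interneurons (left, 211 genes) and in other neurons (right, 207 genes). The points rise with length on the left (rho 0.42) and fall on the right (rho -0.40), where the genes are those that passed the interneuron filter; over all 7475 genes tested in other neurons rho was -0.05.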

How the data were processed

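The deposited table holds counts: UMIs of 28324 genes in 12823 single cells, whose column names carry the mouse and the authors' class, per the file headers. The submitters' processing notes name STAR 2.5.0c, bcl2fastq and the build mm10/GRCm38; for the counting program and annotation, nothing is stated in those notes or the labels. The members are the columns of class Interneuron; they and the gene lists were chosen with earlier results of these data known, and the lists include markers of other cells.

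UMIs were summed per mouse, the replicate, and tested with edgeR 4.0.16 (R 4.3.3; filterByExpr, TMM, quasi-likelihood test, Benjamini-Hochberg over all genes tested), two-sided, after tests on simulated data. The interaction used sums of interneurons and of other neuronal classes with the mouse as a block. Shares were compared by exact permutation over 20 assignments of mice. CPM are scaled to all UMIs of the class in a mouse. Alternatives used DESeq2 1.42.0, limma 3.58.1, Scrublet in scanpy 1.11.5, other filters and scalings, thinning and leaving out each mouse; all 106 cells were kept otherwise. Named genes are the 6 markers, Mylip, the 6 genes of lowest p per direction, up to 6 members of each list by UMIs and the 25 highest ratios to other neurons; Igf1 among Vip cells, genes set side by side for Sst and Vip cells and Prnp were chosen after values were seen. Genes leading the Sst and Vip cells needed 12 UMIs, 5 cells, and 4 or 3 mice. Some genes that this rule names are not reported here.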

Additional observations from a re-analysis of the deposited data

Results flagged for a closer look

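The difference between the effect of the oligonucleotide on Atp1b1 in interneurons and in other neurons was picked out because the interaction itself passed its test: -1.27 on the log2 scale (SE 0.279, edgeR adjusted p = 0.0313, interneurons minus other neurons). The values in interneurons were 2395, 4317 and 6984 CPM after PBS against 2172, 1474 and 1128 CPM after ASO. The difference was below 0 in all 9 alternatives run, from -1.79 to -0.92, and past the threshold in 4 of them, with adjusted p from 0.000231 to 1.0. Against all other cells summed, instead of other neurons, it was -1.22 (adjusted p = 0.806).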

How the results depend on the processing

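Over 21 results and 319 alternatives, 286 were labelled the same. For a single gene this meant the same direction and side of the threshold, and for a number of genes called, an unchanged number. For a share difference it meant the same sign only. The difference by at least 2 UMIs of the GABA genes, 0.0442 points of all cells, is therefore among the 286. The number of genes called between ASO and PBS mice in interneurons was 0; it was 1 (Cntn4) with no filter on low counts, 1 (Atp1b1, edgeR log2 fold change -1.48, adjusted p = 0.0402) with a replicate block of 3 sets of 2 mice, and 0 to 2 when 1 mouse was left out, with 2 without PBS mouse 1 (Atp1b1 and Epha6, at -1.79 and 2.94) and 1 without ASO mouse 1 (Cntn4). The block pairs mice by accession-order number only, because sets had been seen in an earlier analysis, and the labels pair no mice. The interaction called 1 gene; it called 0 against all other cells, 2 (Atp1b1 and Epha6) without doublets, and 0 to 4 when 1 mouse was left out: 0 without PBS mouse 2, ASO mouse 2 or ASO mouse 3, 4 without PBS mouse 1 and 2 without PBS mouse 3 or ASO mouse 1. The 12 genes of lowest p kept their direction in every alternative that gave a value, App from -1.26 to -0.82 and Ctnnd2 from 1.40 to 1.93. With no filter the values of the 216 genes moved up by a median of 0.36, and 167 were higher and 49 lower; without ASO mouse 1 they moved by 0.10. Markers near 0 changed sign. Gad1 became 0.10 with no filter. Gad2 became 0.33 with no filter, 0.31 without Sst cells, 0.034 without Vip cells, and -0.26 to 0.16 when 1 mouse was left out, above 0 without PBS mouse 1 or 3 or ASO mouse 1 or 3. Cnr1 became 0.29 with no filter, 0.52 without Vip cells, and -0.90 to 0.48 when 1 mouse was left out, above 0 without PBS mouse 2 or ASO mouse 2 or 3. Leaving out Sst or Vip cells and a minimum of 20 UMIs were chosen after seeing the data. The share difference was 0.329 points of all cells and 2.01 of neurons without doublets, and 0.271 to 0.335 and 1.67 to 2.32 when 1 mouse was left out; the exact permutation test of 2 against 3 mice cannot go below p = 0.2. With 13 to 28 cells per mouse, the filter on low counts left 216 genes in the main test of ASO against PBS mice. With a minimum of 20 UMIs instead, 1434 genes were tested and 0 were called.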
